A study of Mus musculus with 12 samples.

Results

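The ADAM and ADAMTS genes of the mouse were followed in cultured stromal cells, with and without TGFB1 and with and without the TGF-beta receptor gene Tgfbr2. All genes of the table whose symbol is Adam, Adamts, Adamtsl or Adamdec followed by a number, with or without a closing a or b, were taken, which gave 58 of 25203 genes. The cells were primary Pdgfra-lo-H2B-GFP cultures, named for a reporter that puts green fluorescent protein into the nuclei of cells expressing the PDGF receptor gene Pdgfra, and their source was labelled as mesenchyme. There were 4 groups of 3 libraries, all of this reporter background. TGFB1_KO cultures carried the Tgfbr2 knockout and received TGFB1, and Vehicle_Tgfbr2KO cultures carried the knockout and received vehicle. TGFB1 cultures received TGFB1 and Vehicle cultures received vehicle, and since neither is labelled as a knockout both are called receptor-intact here. The study used the knockout cultures to look for responses to TGFB1 that do not pass through the canonical receptor. Strain, age, sex, the dose and duration of TGFB1, the deleted part of Tgfbr2 and the way it was deleted are not given in the sources used here, nor is whether the 3 libraries of a group came from separate animals.

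ADAM proteins are membrane proteins of the cell surface in which a prodomain, a zinc-dependent metalloprotease domain and a disintegrin domain follow one another. The active members cut the extracellular part of other membrane proteins loose, a process called shedding, and so release growth factors, cytokines and receptors. ADAMTS proteins are secreted, carry thrombospondin repeats and cut matrix proteins such as the proteoglycan versican and the ends of procollagens. ADAMTS-like proteins have the repeats without a protease domain and bind microfibrils. In fibroblasts these families act on the collagen and proteoglycan matrix, and TGF-beta, which signals through Tgfbr2 and the SMAD factors, is a main regulator of that matrix.

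The promoters of the members are shown first for 2 genes that were higher with TGFB1, Adamts14 and Adam15, and for 2 that were lower, Adamts9 and Adamts1. They are examples, and not every gene that rose has the element marked below. Each window holds the 250 bases before and the 50 bases after the gene's start in RefSeq, on the build GRCm38.p6. The submitters' notes name another build, mm9, for their own processing. The windows are chr10:61273370-61273669, chr3:89349979-89350278, chr6:92943485-92943784 and chr16:85803064-85803363, all on the minus strand and printed 5′ to 3′ along the gene. Capitals mark the SMAD-binding element CAGAC on either strand, so that GTCTG is the same element read on the other strand.
Adamts14: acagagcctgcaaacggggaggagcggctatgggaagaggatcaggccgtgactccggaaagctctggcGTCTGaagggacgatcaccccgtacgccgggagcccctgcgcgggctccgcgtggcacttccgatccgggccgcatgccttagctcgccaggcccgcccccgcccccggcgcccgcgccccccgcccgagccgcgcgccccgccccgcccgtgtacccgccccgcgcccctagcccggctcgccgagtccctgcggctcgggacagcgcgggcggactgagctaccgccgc
Adam15: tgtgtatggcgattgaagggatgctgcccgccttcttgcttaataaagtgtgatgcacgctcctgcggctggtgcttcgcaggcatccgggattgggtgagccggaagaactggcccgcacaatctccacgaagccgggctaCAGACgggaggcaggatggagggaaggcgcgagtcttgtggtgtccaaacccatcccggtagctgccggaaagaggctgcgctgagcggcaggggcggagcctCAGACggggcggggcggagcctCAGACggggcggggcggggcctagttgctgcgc
Adamts9: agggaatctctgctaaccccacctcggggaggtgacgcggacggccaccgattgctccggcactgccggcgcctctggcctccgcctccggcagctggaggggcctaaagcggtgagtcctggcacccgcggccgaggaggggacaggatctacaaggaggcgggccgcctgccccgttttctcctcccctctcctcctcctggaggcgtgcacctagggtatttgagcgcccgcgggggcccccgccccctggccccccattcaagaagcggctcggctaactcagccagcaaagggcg
Adamts1: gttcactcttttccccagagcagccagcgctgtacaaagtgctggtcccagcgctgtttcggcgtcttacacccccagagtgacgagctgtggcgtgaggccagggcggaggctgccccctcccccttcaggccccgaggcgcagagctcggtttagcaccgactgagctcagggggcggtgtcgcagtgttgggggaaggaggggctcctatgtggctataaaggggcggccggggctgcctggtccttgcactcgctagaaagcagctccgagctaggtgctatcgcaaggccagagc

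The Adamts14 window held 1 such element and the Adam15 window held 3, against 0 in the Adamts9 window and 0 in the Adamts1 window. RefSeq windows were at hand for 13 of the 22 members that could be tested. Among 4 members that rose with TGFB1 in receptor-intact cultures, 3 had the element, against 0 of 6 members that fell and 2 of 3 members without a call. The member that rose without it was Adamts12, whose window is not among those printed. Adam19, one of the 4, has 3 windows and the others 1 each. Counted by window, 5 of 6 windows of members that rose held it, against 0 of 6 of members that fell and 2 of 3 of members without a call. Over all 32851 windows of this length, 49.6% held CAGAC. The AP-1 motif TGANTCA, where N is any base, was found in 1 of the 4, 0 of the 6 and 0 of the 3, and in 7.81% of all windows. The TEAD motif GGAATG was found in 1 of the 4, 0 of the 6 and 0 of the 3, and in 14.7% of all windows. Both of these matches lay in the same 1 of the 3 Adam19 windows. Each motif was searched on both strands, matches of different motifs were counted separately whether or not they overlapped, and a match is a stretch of letters and not a measured binding site. No window was at hand for Adam12, Adamts4, Adamts6 and Adamts16, which rose, or for Adam9 and Adamts5, which fell. Adamts7, Adamts10 and Adamtsl1, without a call, also lacked a window. The motif counts therefore cover only part of the called members.

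The libraries had summed FPKM between 498669 and 569510. FPKM is the authors' per-length level, fragments per kilobase of transcript, by its name scaled to the library's mapped fragments. Read depth itself is unknown. A relative depth was read from the most common ratio of values under 0.5 FPKM to those of Vehicle replicate 1, set to 1. It ran between 0.746 and 0.798 in TGFB1 libraries and between 0.963 and 1.04 in Vehicle libraries. It stands for the scaling of the deposited values, and how far that follows read depth is not known. Tgfbr2 was at 31.6, 38.0 and 62.4 FPKM in TGFB1_KO libraries and at 27.0, 35.2 and 41.9 FPKM in Vehicle_Tgfbr2KO libraries, against 56.5, 70.6 and 74.6 FPKM in TGFB1 libraries and 48.0, 38.2 and 78.8 FPKM in Vehicle libraries. Transcripts of the targeted gene were therefore present in the knockout libraries, and Vehicle_Tgfbr2KO minus Vehicle was -0.61 on the log2 scale (SE 0.30, adjusted p = 0.26). Gene-level FPKM does not show whether the deleted part is missing, so it does not check the label. All 8 fibroblast markers were detected, with a summed level of 3629 to 6633 FPKM in TGFB1_KO, 2882 to 4022 FPKM in Vehicle_Tgfbr2KO, 8104 to 8873 FPKM in TGFB1 and 5154 to 8526 FPKM in Vehicle libraries. The 13 leukocyte markers summed to 213 to 414 FPKM in TGFB1_KO, 341 to 509 FPKM in Vehicle_Tgfbr2KO, 15.9 to 382 FPKM in TGFB1 and 41.9 to 726 FPKM in Vehicle libraries, with replicate 2 of both intact groups at the low end. The knockout sums mix opposite patterns. S100a8 was at 188, 125 and 10.3 FPKM in TGFB1_KO and 219, 122 and 39.5 FPKM in Vehicle_Tgfbr2KO libraries, but at most 11.2 FPKM in intact libraries. Lyz2 was lowest in replicate 1, at 87.0, 226 and 156 FPKM in TGFB1_KO and 107, 304 and 241 FPKM in Vehicle_Tgfbr2KO libraries. The T-cell gene Cd3e was at 0 in 11 libraries and at 0.0452 FPKM in TGFB1 replicate 3. The 7 endothelial markers summed to 0.550 to 12.5 FPKM in TGFB1 and 0.592 to 14.7 FPKM in Vehicle libraries. Replicate 2 of both groups was again lowest. In TGFB1_KO libraries these sums were 5.32 to 14.7 FPKM, and in Vehicle_Tgfbr2KO libraries 3.91 to 16.7 FPKM. The 10 epithelial markers summed to 7.33 to 29.5 FPKM in TGFB1_KO, 8.89 to 66.1 FPKM in Vehicle_Tgfbr2KO, 3.24 to 6.24 FPKM in TGFB1 and 6.28 to 9.80 FPKM in Vehicle libraries, with replicate 1 of both knockout groups at the high end.

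Of the 58 members, 22 were at 1 FPKM or more in 3 or more libraries and were tested. Another 27 were above 0 somewhere, with no value over 1.17 FPKM, and 9 were at 0 in every library. All 9 of these belong to the 21 ADAMs known from testis and sperm, of which none was tested and the highest value was 0.858 FPKM. Adamdec1, a soluble ADAM known from gut macrophages and gut stroma, had the highest level among the untested members, 1.17 FPKM in TGFB1_KO replicate 3. The membrane ADAM proteases had 7 of 9 members tested. The ADAMs outside the testis and sperm group that lack the catalytic zinc site had 1 of 3. The ADAMTS that cut hyalectans, the family of versican and aggrecan, had 4 of 7, the procollagen N-proteinases 2 of 3, the other ADAMTS 5 of 9 and the ADAMTS-like genes 3 of 5. A group mean of 5 FPKM or more was reached by 20 members, and the 2 tested members below it were Adamts16 and Adamtsl1. In bulk RNA a lower level can come from fewer cells of a type or from less RNA per cell, and these cannot be told apart.

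**Figure D1:**
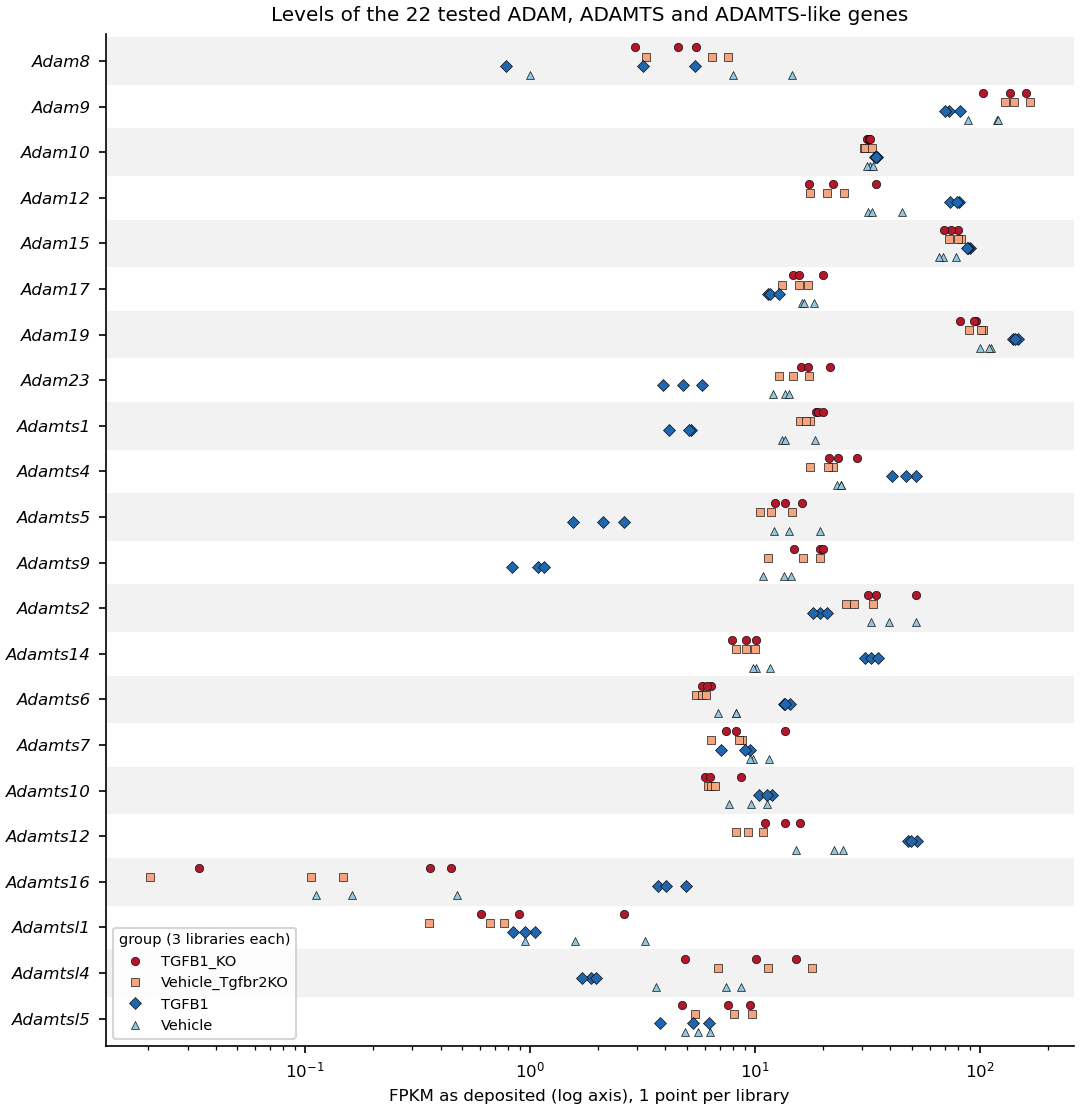
FPKM of the 22 tested genes (rows, by class) on a log axis, 1 point per library, with 4 groups of 3 libraries. Adam9, Adam15 and Adam19 lie at the high end, and the TGFB1 points of Adamts9 (0.827 to 1.16 FPKM) and Adamts16 (3.72 to 4.96 FPKM) stand apart from the other 3 groups.

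Adam9, Adam15 and Adam19 had the highest group means in TGFB1_KO, Vehicle_Tgfbr2KO and Vehicle libraries, while in TGFB1 libraries Adam12 (78.0 ± 3.97 FPKM) lay above Adam9 (74.9 ± 6.12 FPKM, SD, n = 3 each). Adam9, Adam15 and Adam19 together made up 44.9% to 56.6% of the summed FPKM of all 58 members in TGFB1_KO libraries and 54.8% to 60.4% in Vehicle_Tgfbr2KO libraries, against 46.5% to 49.5% in TGFB1 libraries and 44.0% to 52.4% in Vehicle libraries. The sum over all members was 645 ± 1.46 FPKM in TGFB1 libraries and 582 ± 15.0 FPKM in Vehicle libraries (SD, n = 3 each), and the 2 groups did not overlap. The sum over all genes did not overlap either, at 551457 to 569510 FPKM in TGFB1 libraries and 503530 to 518802 FPKM in Vehicle libraries, and the ratio of the group means was 1.11 for the members and 1.10 for all genes. The members' sum was 579 ± 14.6 FPKM in TGFB1_KO libraries and 568 ± 31.6 FPKM in Vehicle_Tgfbr2KO libraries (SD, n = 3 each).

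In receptor-intact cultures, TGFB1 was followed by opposite changes within the family. Adamts14, Adamts12, Adam12, Adamts4, Adamts6, Adam19, Adam15 and Adamts16 rose, and Adamts9, Adamts5, Adamts1, Adamtsl4, Adam23, Adamts2, Adam9 and Adam17 fell. Thus 8 members rose and 8 fell of 22 tested, 72.7%, at an adjusted p under 0.05 (limma on log2(FPKM + 1), Benjamini-Hochberg over all 12641 tested genes). Over all tested genes 31.9% were called, 17.3% higher and 14.6% lower. With upper-quartile scaling of the libraries the count was again 8 and 8. Adamts16 passed the filter only through the TGFB1 group, so a difference was built into its being tested, here and in every comparison that uses the TGFB1 libraries. Without it, 7 rose and 8 fell of 21, 71.4%. The median change of the tested members was -0.19 and that of all tested genes 0.02 on the log2 scale. The TGFB1 libraries also had the lower relative depth, with a mean of 0.779 against 1.00 in Vehicle libraries. The part of depth or scaling in these changes was not tested. Pdgfra, the gene of the reporter and one of the fibroblast markers, averaged 15.2 ± 4.01 FPKM in TGFB1 libraries and 142 ± 20.7 FPKM in Vehicle libraries (log2 change -3.16, adjusted p = 0.000197). The 8 smooth muscle and pericyte markers summed to 5166 to 5919 FPKM in TGFB1 libraries, against 3614 to 4460 FPKM in Vehicle libraries, without overlap. Of these 8, Actg2, Cnn1 and Cspg4 rose and Notch3 fell. Of the 8 fibroblast markers Vim rose and Pdgfra fell, and 1 marker each of epithelium (Krt19), leukocytes (Cd14) and interstitial cells of Cajal (Ano1) fell. The part of these markers in the members' changes was not tested.

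**Figure D2:**
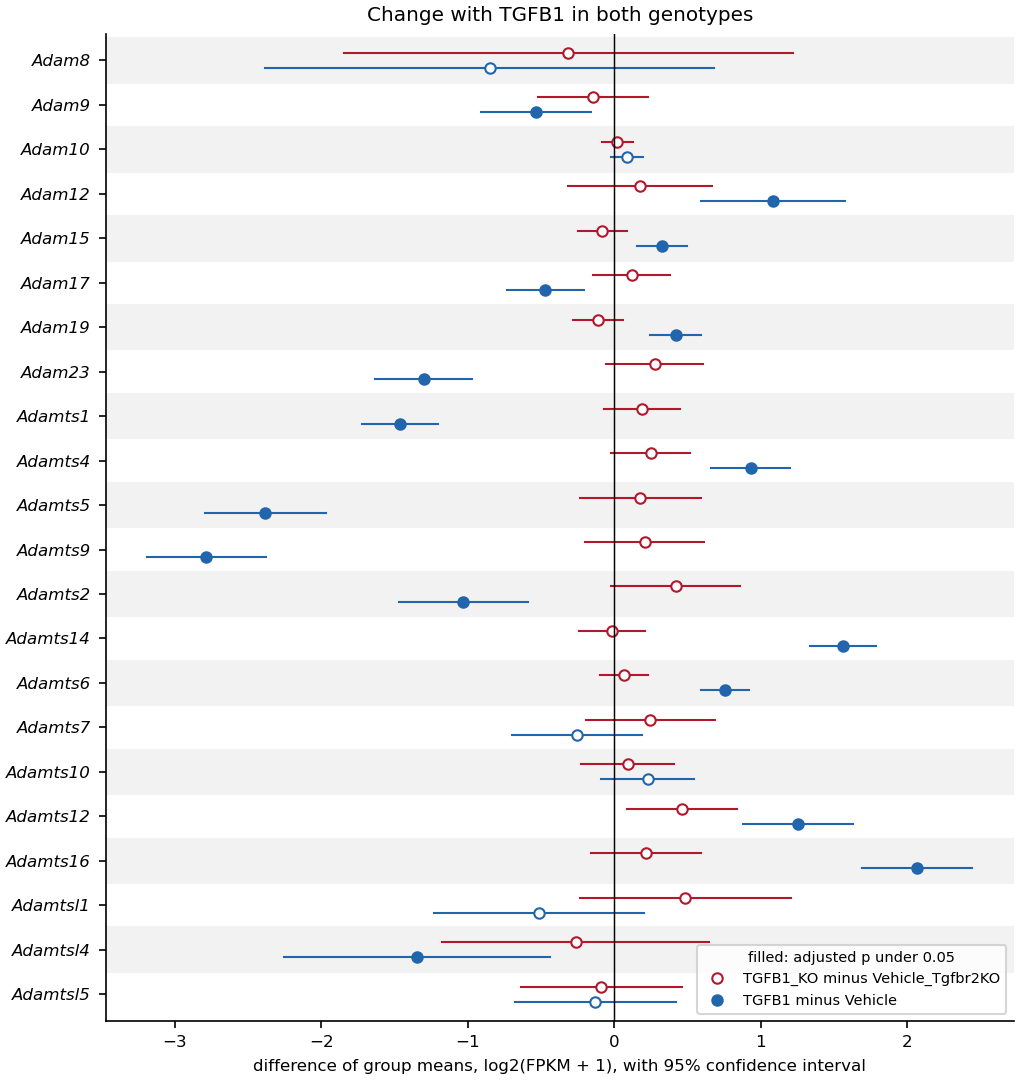
Difference of group means on the log2(FPKM + 1) scale with its 95% confidence interval for the 22 tested genes, for TGFB1_KO minus Vehicle_Tgfbr2KO (red, upper) and TGFB1 minus Vehicle (blue, lower), with filled points at an adjusted p under 0.05. The blue points run from -2.78 for Adamts9 to 2.07 for Adamts16 and 16 are filled, while the red points lie between -0.31 and 0.49 and none is filled. Adamts16 passed the filter only through its TGFB1 libraries.

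Among the ADAMTS that cut versican and aggrecan, 3 fell and 1 rose. Adamts9, a versican-cutting protease, was at 0.827, 1.08 and 1.16 FPKM in TGFB1 libraries, against 14.5, 13.5 and 10.9 FPKM in Vehicle libraries. The groups lay far apart, and the mean was 1.02 ± 0.172 FPKM with TGFB1 and 13.0 ± 1.89 FPKM with vehicle (SD, n = 3 each, as for all such means), 12.7-fold lower (log2 change -2.78, SE 0.18, adjusted p = 5.8e-06). Its TGFB1 libraries lie near 1 FPKM, where the size of a fold is uncertain, and the log2 change ran from -3.54 to -2.70 over the alternatives. Adamts5, the main aggrecan-cutting enzyme of mouse cartilage, was at 2.12, 2.61 and 1.55 FPKM in TGFB1 libraries, against 14.1, 19.4 and 12.1 FPKM in Vehicle libraries. Every TGFB1 library was below every Vehicle library, and the level was 7.27-fold lower (log2 change -2.38, SE 0.19, adjusted p = 1.53e-05). Adamts1, its neighbour on chromosome 16 with no protein-coding gene between them in RefSeq, was at 4.16, 5.20 and 5.09 FPKM in TGFB1 libraries, against 13.2, 18.5 and 13.6 FPKM in Vehicle libraries. It was 3.14-fold lower with no overlap (log2 change -1.46, SE 0.12, adjusted p = 1.8e-05). Adamts4, the other well-known aggrecanase, went the opposite way and was at 40.5, 51.9 and 47.0 FPKM in TGFB1 libraries, against 24.2, 23.1 and 24.0 FPKM in Vehicle libraries. That was 1.96-fold higher (log2 change 0.93, SE 0.12, adjusted p = 0.000323), again with no overlap between the groups.

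Adamts4 had the highest FPKM of the class in all 12 libraries, by a margin that differed between the groups. The ratio of Adamts4 to Adamts5 FPKM was 19.1, 19.9 and 30.3 in TGFB1 libraries, against 1.71, 1.19 and 1.98 in Vehicle libraries. In the knockout it was 1.33, 1.72 and 2.30 in TGFB1_KO libraries, against 1.67, 1.52 and 1.79 in Vehicle_Tgfbr2KO libraries. The TGFB1 libraries stood apart from the other 3 groups. The summed level of the 7 hyalectan-cleaving members was 54.7 ± 6.59 FPKM with TGFB1 and 67.7 ± 6.63 FPKM with vehicle (SD, n = 3 each). The untested Adamts8, Adamts15 and Adamts20 did not exceed 1.06 FPKM.

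The procollagen N-proteinases, which remove the amino-terminal propeptide of fibrillar procollagens, also split. Adamts14 was at 30.9, 32.7 and 35.4 FPKM in TGFB1 libraries, against 11.7, 10.1 and 9.79 FPKM in Vehicle libraries. The lowest TGFB1 library was above the highest Vehicle library by a wide margin, and the level was 3.14-fold higher (log2 change 1.56, SE 0.10, adjusted p = 5.38e-06). Adamts2, the enzyme mutated in the dermatosparactic form of Ehlers-Danlos syndrome in humans, was at 19.4, 18.1 and 20.8 FPKM in TGFB1 libraries, against 39.4, 32.6 and 52.2 FPKM in Vehicle libraries. It was 2.13-fold lower with no overlap (log2 change -1.03, SE 0.20, adjusted p = 0.00325). Adamts14 over Adamts2 was 1.59, 1.80 and 1.70 in TGFB1 libraries, against 0.297, 0.309 and 0.188 in Vehicle libraries. It was 0.287, 0.290 and 0.152 in TGFB1_KO libraries, against 0.332, 0.301 and 0.325 in Vehicle_Tgfbr2KO libraries. The order of the 2 genes was thus turned round in the TGFB1 libraries, while their class sum was 52.6 ± 3.27 FPKM with TGFB1 and 52.4 ± 9.93 FPKM with vehicle (SD, n = 3 each). Adamts3, the remaining member of the class, stayed at or below 0.850 FPKM.

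Among the other ADAMTS, 3 rose, none fell and 2 were not called. Adamts12, which cuts the cartilage oligomeric matrix protein together with its close relative Adamts7, was at 52.7, 47.8 and 49.4 FPKM in TGFB1 libraries, against 22.4, 15.3 and 24.5 FPKM in Vehicle libraries. It was 2.41-fold higher with no overlap (log2 change 1.26, SE 0.17, adjusted p = 0.000421). Adamts7 was at 7.04, 9.46 and 8.99 FPKM in TGFB1 libraries, against 9.83, 9.49 and 11.5 FPKM in Vehicle libraries, a change of -0.25 (95% interval -0.69 to 0.19, adjusted p = 0.371). Its highest TGFB1 library was just below its lowest Vehicle library. The ratio of Adamts12 to Adamts7 FPKM was 7.49, 5.05 and 5.49 in TGFB1 libraries, against 2.28, 1.61 and 2.13 in Vehicle libraries. Adamts6 and Adamts10 are another closely related pair, both tied to fibrillin microfibrils. Adamts6 was at 13.5, 14.3 and 13.7 FPKM in TGFB1 libraries, against 8.26, 6.85 and 8.25 FPKM in Vehicle libraries, 1.77-fold higher with no overlap (log2 change 0.76, SE 0.07, adjusted p = 5.65e-05). Adamts10 was at 11.9, 10.4 and 11.3 FPKM in TGFB1 libraries, against 9.64, 7.63 and 11.3 FPKM in Vehicle libraries, and its interval (-0.09 to 0.54 around 0.23, adjusted p = 0.255) held both no change and a rise. Whether the responses within these pairs differ was not tested. Adamts16, which can cut fibronectin, was at 3.72, 4.01 and 4.96 FPKM in TGFB1 libraries, against 0.162, 0.111 and 0.472 FPKM in Vehicle libraries. It was near the detection limit without TGFB1, so only the level is given as a size, 4.23 ± 0.648 FPKM with TGFB1 and 0.249 ± 0.196 FPKM with vehicle. Its adjusted p is not given, since it entered the fit through its TGFB1 libraries, though it is counted and plotted among the tested members. Adamts13, Adamts17, Adamts18 and Adamts19 did not exceed 0.184 FPKM.

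Of the 7 tested membrane ADAMs, 3 rose, 2 fell and 2 were not called. Adam12, a protease known from activated fibroblasts and regenerating muscle, was at 73.6, 81.1 and 79.5 FPKM in TGFB1 libraries, against 31.9, 33.2 and 45.1 FPKM in Vehicle libraries. It was 2.13-fold higher with no overlap (log2 change 1.08, SE 0.22, adjusted p = 0.00444). Adam19, which sheds neuregulin, was at 148, 140.2 and 143 FPKM in TGFB1 libraries, against 112, 109 and 100.1 FPKM in Vehicle libraries. Its rise was 1.34-fold (log2 change 0.42, SE 0.08, adjusted p = 0.00256). Adam15, an ADAM with an integrin-binding disintegrin domain, was at 90.5, 88.8 and 87.4 FPKM in TGFB1 libraries, against 78.1, 68.9 and 65.6 FPKM in Vehicle libraries. Its rise was 1.25-fold with no overlap (log2 change 0.33, SE 0.08, adjusted p = 0.00888). Adam17, the enzyme that sheds tumour necrosis factor and many EGF-family ligands, was at 11.4, 11.7 and 12.8 FPKM in TGFB1 libraries, against 16.1, 16.5 and 18.2 FPKM in Vehicle libraries. The level was 1.42-fold lower with no overlap (log2 change -0.47, SE 0.12, adjusted p = 0.0128). Adam9, one of the most abundant members, was at 81.8, 72.9 and 70.1 FPKM in TGFB1 libraries, against 119.8, 120.0 and 88.7 FPKM in Vehicle libraries. It was 1.46-fold lower with no overlap (log2 change -0.53, SE 0.17, adjusted p = 0.036).

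Adam10, the sheddase of Notch receptors and cadherins, was at 34.9, 34.2 and 34.6 FPKM in TGFB1 libraries, against 32.6, 31.3 and 33.5 FPKM in Vehicle libraries. Its change was 0.09 with a 95% interval of -0.02 to 0.19 (adjusted p = 0.198), and the lowest TGFB1 library was just above the highest Vehicle library. Adam8, an ADAM of leukocytes, was at 3.18, 0.781 and 5.41 FPKM in TGFB1 libraries, against 7.98, 1.00 and 14.5 FPKM in Vehicle libraries and had the widest interval, -2.38 to 0.68 around -0.85 (adjusted p = 0.388). It was lowest in replicate 2 of both groups, the libraries in which the leukocyte markers were also lowest. With the replicate number as a block within each genotype its adjusted p was 0.0162, and without Vehicle replicate 2 the change was -1.70 (adjusted p = 0.0394). The part of leukocyte RNA in its level was not tested. Adam23, which lacks the catalytic site and binds the secreted LGI proteins in brain, was at 3.91, 5.83 and 4.79 FPKM in TGFB1 libraries, against 12.0, 13.6 and 14.2 FPKM in Vehicle libraries. It was 2.74-fold lower with no overlap (log2 change -1.30, SE 0.15, adjusted p = 0.000156), and the other 2 ADAMs of its class, Adam11 and Adam22, did not exceed 0.963 FPKM.

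The ADAMTS-like genes had 1 call among 3 tested members. Adamtsl4, a fibrillin-binding protein of the lens zonule, was at 1.87, 1.96 and 1.70 FPKM in TGFB1 libraries, against 8.68, 7.43 and 3.62 FPKM in Vehicle libraries. The TGFB1 libraries were close to each other and all below the spread-out Vehicle libraries, 3.57-fold lower (log2 change -1.35, SE 0.41, adjusted p = 0.0299). Adamtsl5, which also binds microfibrils, was at 6.22, 5.30 and 3.77 FPKM in TGFB1 libraries, against 6.32, 5.60 and 4.87 FPKM in Vehicle libraries with overlapping groups (log2 change -0.13, 95% interval -0.68 to 0.42, adjusted p = 0.734). Adamtsl1 was at 1.05, 0.842 and 0.949 FPKM in TGFB1 libraries, against 0.948, 1.59 and 3.24 FPKM in Vehicle libraries, also with overlap (log2 change -0.51, adjusted p = 0.263). In both TGFB1 and Vehicle cultures, as in the knockout, Adamtsl5 was lowest in replicate 3.

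Counting libraries instead of fitting a model, 18 of the 22 tested members had no overlap between the 3 TGFB1 and the 3 Vehicle libraries, as had 47.9% of all tested genes. All 16 called members were among those without overlap, so by that alone they moved the same way in all 3 pairs of equally numbered libraries. The weakest calls were those of Adam9 and Adamtsl4. The Adam9 call was lost when Vehicle replicate 1 or 2, any of the 3 TGFB1 libraries or Vehicle_Tgfbr2KO replicate 2 was left out (adjusted p between 0.0513 and 0.113). The Adamtsl4 call was lost when Vehicle replicate 1 or 2 or any TGFB1 library was left out (adjusted p between 0.0639 and 0.0994). With no filter on low values both calls were lost as well (adjusted p = 0.0582 for Adam9 and 0.0515 for Adamtsl4). With replicate 2 of both groups left out, the libraries low in leukocyte and endothelial markers, 7 members rose and 5 fell. The calls of Adam15, Adam17, Adam9 and Adamtsl4 were lost, and their changes were 0.31, -0.47, -0.44 and -1.26.

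**Figure D3:**
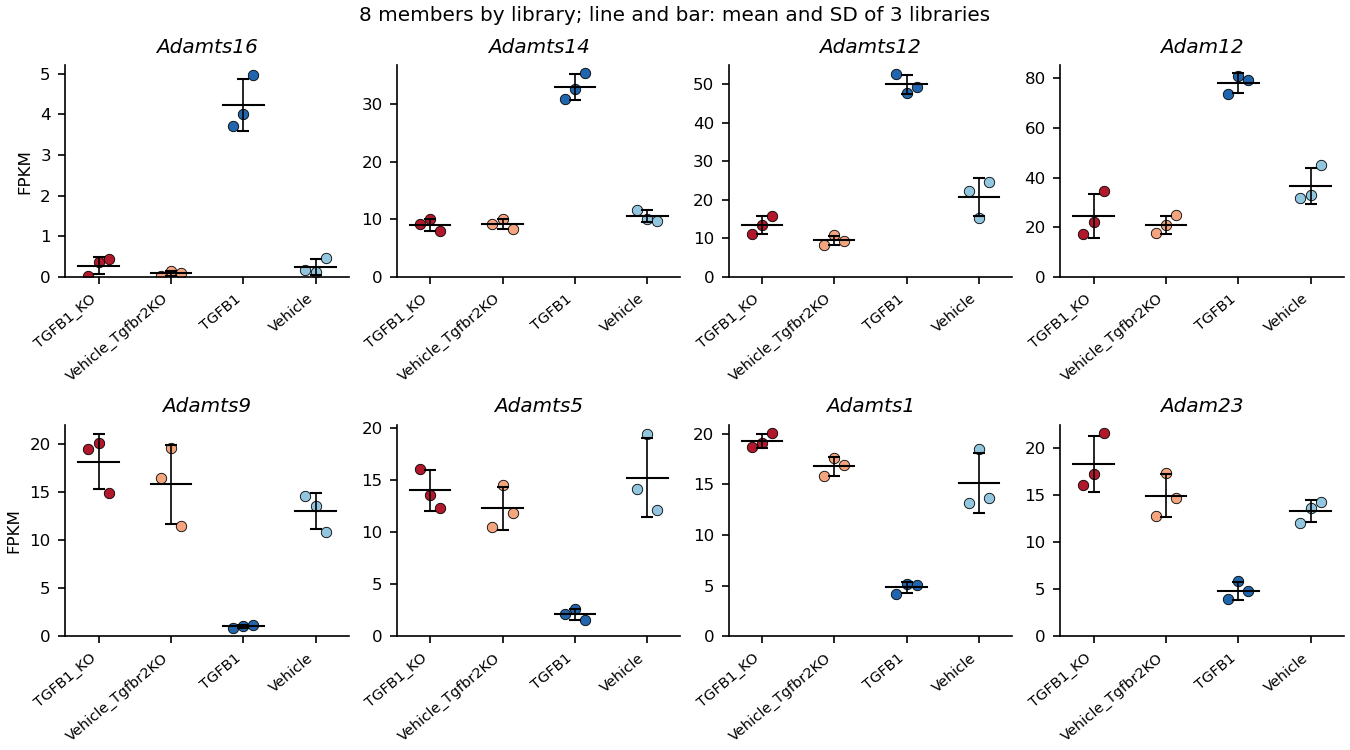
FPKM by library (points) with mean and SD (line and bar, n = 3) in the 4 groups for 4 genes that rose and 4 that fell with TGFB1 in receptor-intact cultures. In each panel the TGFB1 libraries stand apart, and the 2 knockout groups overlap except for Adamts12 and Adamts1, for example Adamts14 between 7.91 and 10.1 FPKM in all 6 knockout libraries.

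In Tgfbr2 knockout cultures no member was called with TGFB1. Adamts12 alone had an unadjusted p under 0.05, and it was at 11.1, 13.5 and 15.8 FPKM in TGFB1_KO libraries, against 8.27, 10.8 and 9.31 FPKM in Vehicle_Tgfbr2KO libraries. Its 3 TGFB1_KO libraries lay above the 3 Vehicle_Tgfbr2KO libraries, 13.5 ± 2.33 FPKM against 9.46 ± 1.28 FPKM (log2 change 0.46, 95% interval 0.09 to 0.84, adjusted p = 0.738). With limma, 0 of 22 members and 0% of all 12641 tested genes passed, with 1 member and 748 genes at an unadjusted p under 0.05. Adamts1 was the other member without overlap, at 18.7, 19.0 and 20.1 FPKM in TGFB1_KO libraries, against 15.8, 17.6 and 16.9 FPKM in Vehicle_Tgfbr2KO libraries (log2 change 0.19, adjusted p = 0.738). Over all tested genes 11.8% had no overlap in this comparison. The changes of the members ran from -0.31 to 0.49 with a median of 0.15, beside 0.00 over all tested genes, and 15 were above and 7 below 0.

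All tested members but Adamts12 and Adamts1 had overlapping knockout groups. Adamts9 was at 19.4, 20.1 and 14.9 FPKM in TGFB1_KO libraries, against 16.4, 19.5 and 11.4 FPKM in Vehicle_Tgfbr2KO libraries, a change of 0.21 (95% interval -0.20 to 0.61). Adamts5 was at 16.1, 13.6 and 12.3 FPKM in TGFB1_KO libraries, against 10.5, 14.6 and 11.8 FPKM in Vehicle_Tgfbr2KO libraries, a change of 0.18 (-0.23 to 0.59). Adamts14 was at 9.16, 10.1 and 7.91 FPKM in TGFB1_KO libraries, against 9.17, 10.0 and 8.24 FPKM in Vehicle_Tgfbr2KO libraries, a change of -0.02 (-0.24 to 0.21). These intervals leave out the changes measured in intact cultures, and the groups of each of the 3 genes overlapped. Adamts16 stayed low, at 0.0337, 0.360 and 0.443 FPKM in TGFB1_KO libraries, against 0.0204, 0.147 and 0.106 FPKM in Vehicle_Tgfbr2KO libraries. Adamts4 was at 21.4, 23.3 and 28.3 FPKM in TGFB1_KO libraries, against 17.5, 22.2 and 21.2 FPKM in Vehicle_Tgfbr2KO libraries. Adam23, the inactive ADAM, was at 16.0, 17.3 and 21.6 FPKM in TGFB1_KO libraries, against 12.8, 17.3 and 14.7 FPKM in Vehicle_Tgfbr2KO libraries. For both genes replicate 3 was the highest TGFB1_KO library, and the groups overlapped. Adam12 was at 17.4, 22.2 and 34.6 FPKM in TGFB1_KO libraries, against 17.6, 20.9 and 24.8 FPKM in Vehicle_Tgfbr2KO libraries. Replicate 3 was the high one in both groups. Adamts2 was at 32.0, 34.7 and 51.9 FPKM in TGFB1_KO libraries, against 27.6, 33.4 and 25.3 FPKM in Vehicle_Tgfbr2KO libraries, again with replicate 3 of TGFB1_KO on top, a change of 0.42 (95% interval -0.02 to 0.86). Half-widths of the members' 95% intervals ran from 0.11 for Adam10 to 1.53 for Adam8, with a median of 0.38. Responses within its own half-width could not be told from 0 for a member. The adjusted test was stricter still, as for Adamts12.

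Adam9 was at 161, 136 and 103 FPKM in TGFB1_KO libraries, against 167, 141 and 130.0 FPKM in Vehicle_Tgfbr2KO libraries, and in both groups its level was highest in replicate 1 and lowest in replicate 3. Adam19 was at 96.2, 94.2 and 81.6 FPKM in TGFB1_KO libraries, against 103, 101 and 89.7 FPKM in Vehicle_Tgfbr2KO libraries. Adam15 was at 79.6, 74.3 and 69.5 FPKM in TGFB1_KO libraries, against 82.9, 80.3 and 73.1 FPKM in Vehicle_Tgfbr2KO libraries. Of Adam9, Adam19 and Adam15, each TGFB1_KO library was below the Vehicle_Tgfbr2KO library of the same number. Adam17 was at 14.8, 15.7 and 20.0 FPKM in TGFB1_KO libraries, against 13.2, 15.7 and 17.2 FPKM in Vehicle_Tgfbr2KO libraries. Adam10 was at 31.4, 32.0 and 32.6 FPKM in TGFB1_KO libraries, against 30.4, 30.999 and 33.2 FPKM in Vehicle_Tgfbr2KO libraries. These sheddases of tumour necrosis factor and of Notch overlapped between the groups. The leukocyte gene Adam8 was at 2.92, 5.49 and 4.57 FPKM in TGFB1_KO libraries, against 3.27, 7.58 and 6.42 FPKM in Vehicle_Tgfbr2KO libraries. It was lowest in replicate 1 of either group, as was the leukocyte marker Lyz2. Adamts6 was at 5.79, 6.38 and 6.12 FPKM in TGFB1_KO libraries, against 5.45, 5.79 and 6.06 FPKM in Vehicle_Tgfbr2KO libraries. Its relative Adamts10 was at 6.00, 6.29 and 8.67 FPKM in TGFB1_KO libraries, against 6.17, 6.40 and 6.66 FPKM in Vehicle_Tgfbr2KO libraries, with only TGFB1_KO replicate 3 above the others. Adamts7 was at 7.42, 8.24 and 13.6 FPKM in TGFB1_KO libraries, against 6.35, 8.73 and 8.48 FPKM in Vehicle_Tgfbr2KO libraries. Adamtsl1 was at 0.603, 0.892 and 2.62 FPKM in TGFB1_KO libraries, against 0.356, 0.767 and 0.664 FPKM in Vehicle_Tgfbr2KO libraries. Both were again highest in TGFB1_KO replicate 3. Adamtsl4 was at 15.3, 10.1 and 4.90 FPKM in TGFB1_KO libraries, against 17.9, 11.4 and 6.85 FPKM in Vehicle_Tgfbr2KO libraries. Adamtsl5 was at 9.46, 7.62 and 4.72 FPKM in TGFB1_KO libraries, against 9.66, 8.07 and 5.38 FPKM in Vehicle_Tgfbr2KO libraries. Both microfibril-binding genes had their highest level in replicate 1 and their lowest in replicate 3 of either group, as Adam9 had.

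The test of the difference between the genotypes, the TGFB1 change in the knockout minus that in intact cultures, called 13 of the 22 members, 6 positive and 7 negative, beside 17.6% of all tested genes (8.38% positive and 9.26% negative). All 13 were among the 16 members that changed in intact cultures, and each had the opposite sign there. The intact change enters this difference with a minus sign, so both follow largely from how it is formed and are no separate result. The largest were Adamts9 (log2 difference 2.99, SE 0.26, adjusted p = 9.73e-05) and Adamts5 (2.56, adjusted p = 0.00022). Adamts1 (1.65), Adam23 (1.58) and Adamts2 (1.45) followed among the genes that fell with TGFB1. Without Adamts16, whose difference of -1.85 was built in by the filter, 6 were positive and 6 negative of 21. Of the other members that rose, the difference was -1.58 for Adamts14, -0.69 for Adamts6, -0.68 for Adamts4 and -0.53 for Adam19. The calls of Adamts12 (-0.79, adjusted p = 0.0459), Adam17 (0.59, adjusted p = 0.0362) and Adam15 (-0.41, adjusted p = 0.0282) were near the threshold.

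Adam12 (-0.91, adjusted p = 0.0716), Adamtsl4 (1.08, adjusted p = 0.226) and Adam9 (0.39, adjusted p = 0.298) changed in intact cultures without a call for the difference. With the replicate number as a block over all 12 libraries, these 3 were called as well (adjusted p = 0.00801, 0.0312 and 0.042), giving 8 positive and 8 negative members beside 3658 of all genes in place of 2230. With the block fitted within each genotype, Adam12 and Adamtsl4 were called (adjusted p = 0.0096 and 0.0196) and Adam9 was not. Without TGFB1_KO replicate 3, the Adam12 difference was -1.17 (adjusted p = 0.01). Of the 13 calls, 9 held in every alternative, including that of Adamts16, which was built in by the filter. Those of Adam15, Adam17, Adamts12 and Adamts4 did not: leaving out single libraries gave adjusted p of up to 0.0704, 0.0846, 0.104 and 0.0545, the last without Vehicle_Tgfbr2KO replicate 2. The Adam15 call was lost without Vehicle replicate 2 or 3, any TGFB1 library, Vehicle_Tgfbr2KO replicate 1 or 2, or TGFB1_KO replicate 2 or 3. The Adam17 call was lost with no filter (adjusted p = 0.0576) and without any of the Vehicle or TGFB1 libraries, Vehicle_Tgfbr2KO replicate 1 or 2, or TGFB1_KO replicate 3. The Adamts12 call was lost without any 1 library except Vehicle replicate 3 and TGFB1_KO replicate 3, and also with a smaller pseudocount, no filter, upper-quartile scaling or no variance trend (adjusted p between 0.0508 and 0.0739). With replicate 2 of both intact groups left out, all 4 calls were lost (adjusted p between 0.091 and 0.109), and without replicate 1 of both knockout groups that of Adamts12 was lost (adjusted p = 0.084).

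The knockout itself, with vehicle on both sides, was accompanied by few calls. Adamts12 and Adamts6 were lower in Vehicle_Tgfbr2KO cultures than in Vehicle cultures, and no member was higher. That is 2 of 22 members, 9.09%, beside 1.24% of all tested genes (0.522% higher and 0.72% lower). Adamts12 averaged 9.46 ± 1.28 FPKM in Vehicle_Tgfbr2KO and 20.7 ± 4.86 FPKM in Vehicle libraries (SD, n = 3 each), 2.19-fold lower with no overlap (log2 change -1.04, SE 0.17, adjusted p = 0.0304). Adamts6 averaged 5.77 ± 0.304 FPKM in Vehicle_Tgfbr2KO libraries (5.45, 5.79 and 6.06 FPKM by library) and 7.79 ± 0.808 FPKM in Vehicle libraries, 1.35-fold lower (log2 change -0.37, SE 0.07, adjusted p = 0.047). Both also rose with TGFB1 in intact cultures, a comparison that shares the Vehicle libraries with this one. Neither call was stable: with only these 2 groups fitted, 0 members and 0 genes were called, and leaving out single libraries gave between 0 and 4 members. Leaving out Vehicle replicate 1 or 3, any TGFB1 library, any Vehicle_Tgfbr2KO library or TGFB1_KO replicate 2 ended both calls (adjusted p of up to 0.146 for Adamts12 and 0.203 for Adamts6), and TGFB1_KO replicate 1 ended that of Adamts6.

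Other members that differed in level between these groups missed the threshold. Adam12 was at 17.6, 20.9 and 24.8 FPKM in Vehicle_Tgfbr2KO libraries, against 31.9, 33.2 and 45.1 FPKM in Vehicle libraries, without overlap (log2 change -0.77, adjusted p = 0.106). Adamts10 was at 6.17, 6.40 and 6.66 FPKM in Vehicle_Tgfbr2KO libraries, against 9.64, 7.63 and 11.3 FPKM in Vehicle libraries (log2 change -0.49, adjusted p = 0.106). Adam9 was at 167, 141 and 130.0 FPKM in Vehicle_Tgfbr2KO libraries, against 119.8, 120.0 and 88.7 FPKM in Vehicle libraries, the knockout libraries being the higher ones (log2 change 0.42, adjusted p = 0.19). Without TGFB1_KO replicate 3, whose absence changes only the shared spread, both Adam12 (adjusted p = 0.0324) and Adamts10 (adjusted p = 0.0409) were called. No overlap was seen for 8 members, as for 30.3% of all tested genes. Of the 22 members, 15 were below and 7 above 0. The fibroblast markers summed to 2882 to 4022 FPKM in Vehicle_Tgfbr2KO libraries, against 5154 to 8526 FPKM in Vehicle libraries, without overlap and with 0 of 8 called. The largest gaps were those of Col1a1 (1190 ± 300 against 2864 ± 901 FPKM) and Col1a2 (588 ± 228 against 1550 ± 668 FPKM). Vim was the only marker of the list with a higher mean in Vehicle_Tgfbr2KO (1281 ± 70.8 against 1186 ± 87.5 FPKM). The part of the fibroblast markers in the members' differences was not tested. The epithelial sums of these groups overlapped.

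With TGFB1 on both sides, 17 of the 22 members differed between genotypes, 77.3% beside 33.9% of all tested genes. In TGFB1_KO cultures 8 members were higher (15.6% of all genes were) and 9 were lower (18.3% of all genes). With upper-quartile scaling the count was again 8 and 9, and without Adamts16 it was 8 and 8 of 21. Of the 8 smooth muscle and pericyte markers 1 was higher and 5 were lower in TGFB1_KO, with sums of 2939 to 4558 FPKM in TGFB1_KO libraries, against 5166 to 5919 FPKM in TGFB1 libraries. Pdgfra averaged 115 ± 69.9 FPKM in TGFB1_KO and 15.2 ± 4.01 FPKM in TGFB1 libraries (log2 change 2.71, adjusted p = 0.000363). The part of these markers was not tested. These were the 16 members that changed with TGFB1 in intact cultures plus Adamts10, and the comparison shares the TGFB1 libraries with that one. Adamts9 averaged 18.1 ± 2.84 FPKM in TGFB1_KO and 1.02 ± 0.172 FPKM in TGFB1 libraries, 17.8-fold higher (log2 change 3.24, SE 0.18, adjusted p = 1.25e-06), with the same limit on the size of the fold (3.16 to 4.02 on the log2 scale over the alternatives). Adamts1 averaged 19.3 ± 0.741 FPKM in TGFB1_KO and 4.82 ± 0.570 FPKM in TGFB1 libraries, 4.00-fold higher, and Adamts5 was 6.68-fold higher. Adamts12 averaged 13.5 ± 2.33 FPKM in TGFB1_KO and 50.0 ± 2.52 FPKM in TGFB1 libraries, 3.70-fold lower (log2 change -1.83, SE 0.17, adjusted p = 2.71e-05). Adamts14 was 3.65-fold and Adam12 3.16-fold lower in TGFB1_KO. Adamts10 was at 6.00, 6.29 and 8.67 FPKM in TGFB1_KO libraries, against 11.9, 10.4 and 11.3 FPKM in TGFB1 libraries (log2 change -0.63, adjusted p = 0.00658). No overlap was seen for 18 members, as for 45.4% of all tested genes.

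**Figure D4:**
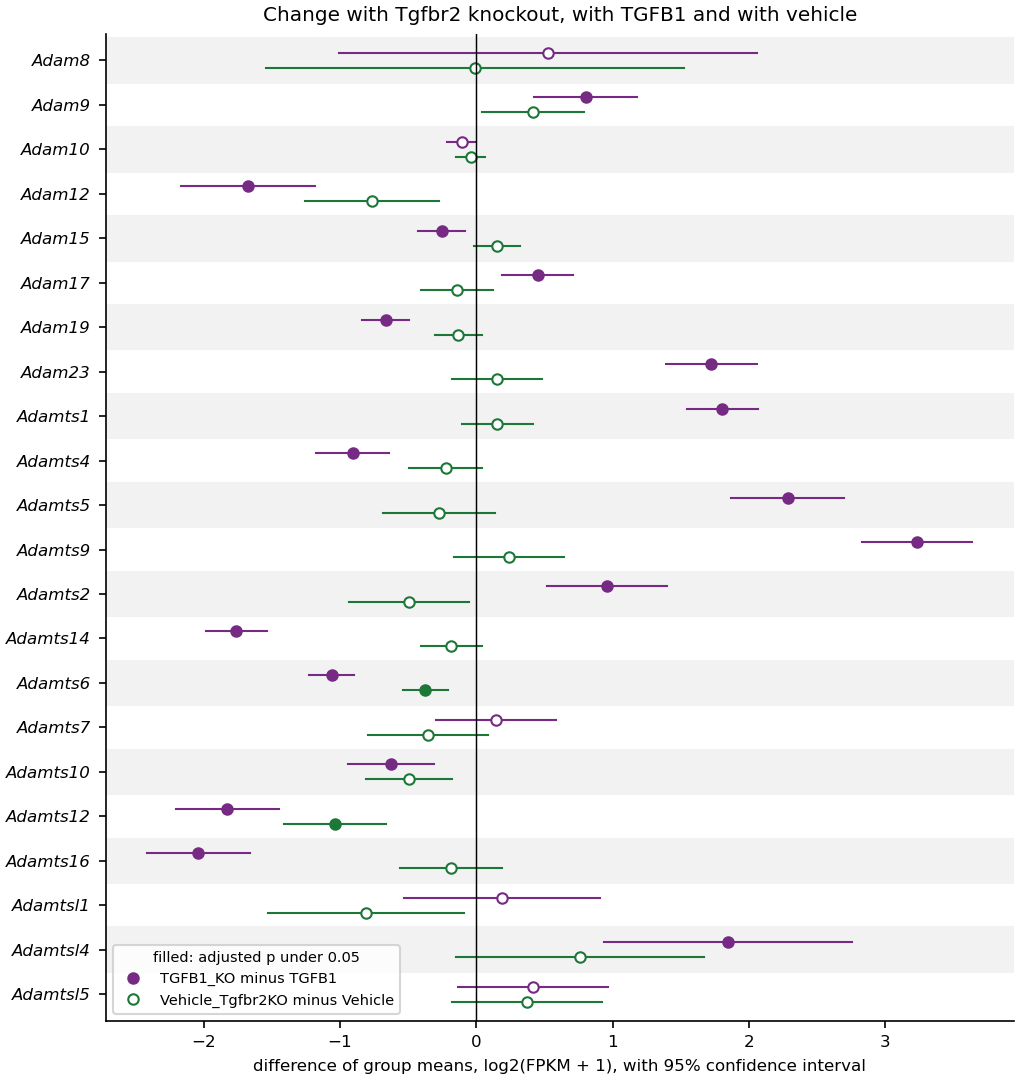
Difference of group means on the log2(FPKM + 1) scale with its 95% confidence interval for the 22 tested genes, for TGFB1_KO minus TGFB1 (purple, upper) and Vehicle_Tgfbr2KO minus Vehicle (green, lower), with filled points at an adjusted p under 0.05. There are 17 filled purple points, from -2.04 for Adamts16 to 3.24 for Adamts9, and 2 filled green points, Adamts12 at -1.04 and Adamts6 at -0.37. Adamts16 passed the filter only through its TGFB1 libraries.

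Of these 17 calls, 15 held in every alternative, including that of Adamts16, which was built in by the filter. Adam15 (-0.25, adjusted p = 0.0262) was lost without any of the 3 TGFB1 libraries or without TGFB1_KO replicate 2 or 3 (adjusted p of up to 0.0781). Adam17 (0.45, adjusted p = 0.0141) was lost without TGFB1 replicate 1 (adjusted p = 0.0503). Both were also lost with the 2 intact libraries low in leukocyte markers left out.

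Genes that act with the ADAM and ADAMTS proteins were read in the same libraries. The lists of inhibitors, activators, carriers and substrates came from textbook knowledge, but were chosen with earlier results of these data known. The shares called among them are therefore not independent of the data. Of 62 listed genes 52 were tested, and 17 rose and 14 fell with TGFB1 in intact cultures beside 31.9% of all tested genes. In the knockout 0 changed, beside 0% of all genes, and 22 had a call for the difference between genotypes, beside 17.6%. Among the inhibitors, Timp3, which blocks ADAM17 and the aggrecanases, averaged 181 ± 16.5 FPKM with TGFB1 and 78.9 ± 10.9 FPKM with vehicle (log2 change 1.20, SE 0.16, adjusted p = 0.000418). Timp1, a broad inhibitor of the related matrix metalloproteinases, averaged 635 ± 42.3 FPKM with TGFB1 and 370.1 ± 33.5 FPKM with vehicle (log2 change 0.78, SE 0.13, adjusted p = 0.00121). Timp2 fell slightly (log2 change -0.37, SE 0.05, adjusted p = 0.000506), so 2 of 4 tested inhibitors rose and 1 fell. Furin, the convertase that removes the prodomain of most ADAM and ADAMTS proteins, averaged 119 ± 5.77 FPKM with TGFB1 and 64.1 ± 7.14 FPKM with vehicle (log2 change 0.89, SE 0.09, adjusted p = 9.06e-05). Its relative Pcsk6 averaged 0.798 ± 0.146 FPKM with TGFB1 and 4.74 ± 1.64 FPKM with vehicle and fell (log2 change -1.63, adjusted p = 0.00967). The 3 tested carriers of ADAM17 (Rhbdf1, Rhbdf2 and Frmd8) had no call, and of 4 tested tetraspanins that guide ADAM10, Tspan5 (-0.78) and Tspan15 (-0.61) fell. Pofut2, which puts fucose on thrombospondin repeats, rose (0.24).

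Substrates and partners moved in both directions. Versican (Vcan), the hyalectan of these cultures, averaged 55.8 ± 7.72 FPKM with TGFB1 and 98.0 ± 4.18 FPKM with vehicle (log2 change -0.81, SE 0.14, adjusted p = 0.0015), and the other 4 listed genes of this group were not tested. Around the procollagens, Bmp1, the proteinase that removes the carboxy-terminal propeptide, rose (log2 change 0.99, SE 0.12, adjusted p = 0.000214), as did Pcolce2 (1.10) and Col5a1 (1.18), while the enhancer Pcolce fell (-1.28). Col1a1 averaged 4046 ± 282 FPKM with TGFB1 and 2864 ± 901 FPKM with vehicle without a call (adjusted p = 0.197). Of the microfibril partners, Fbn1 (0.94), Ltbp2 (0.70) and Ltbp4 (1.11) rose, 3 of 5 tested. Among 21 tested membrane proteins known to be shed by ADAMs, 7 rose and 8 fell. Jag1, a Notch ligand, averaged 94.6 ± 5.58 FPKM with TGFB1 and 9.13 ± 2.08 FPKM with vehicle (log2 change 3.26, SE 0.24, adjusted p = 1.02e-05), and Hbegf, an EGF-family ligand, 129 ± 11.8 FPKM with TGFB1 and 16.5 ± 5.16 FPKM with vehicle (log2 change 2.94, SE 0.37, adjusted p = 0.000279). The cadherin Cdh11 (1.28), Cd44 (0.90) and neuregulin (Nrg1, 0.96) also rose, as did the amyloid precursor App (0.29) and the prion protein gene Prnp (0.53). The EGF-family ligand Ereg (-1.45), the syndecan Sdc4 (-1.15) and the receptors Il6ra (-0.98) and Tnfrsf1b (-0.69) fell. The ligands Btc (-0.76) and Dll1 (-0.75) and the receptors Notch3 (-0.74) and Tnfrsf1a (-0.59) fell as well. With the knockout under vehicle, 1 of the 52 was called beside 1.24% of all genes, Ltbp4 (-1.04, adjusted p = 0.0433), which was lower.

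**Figure D5:**
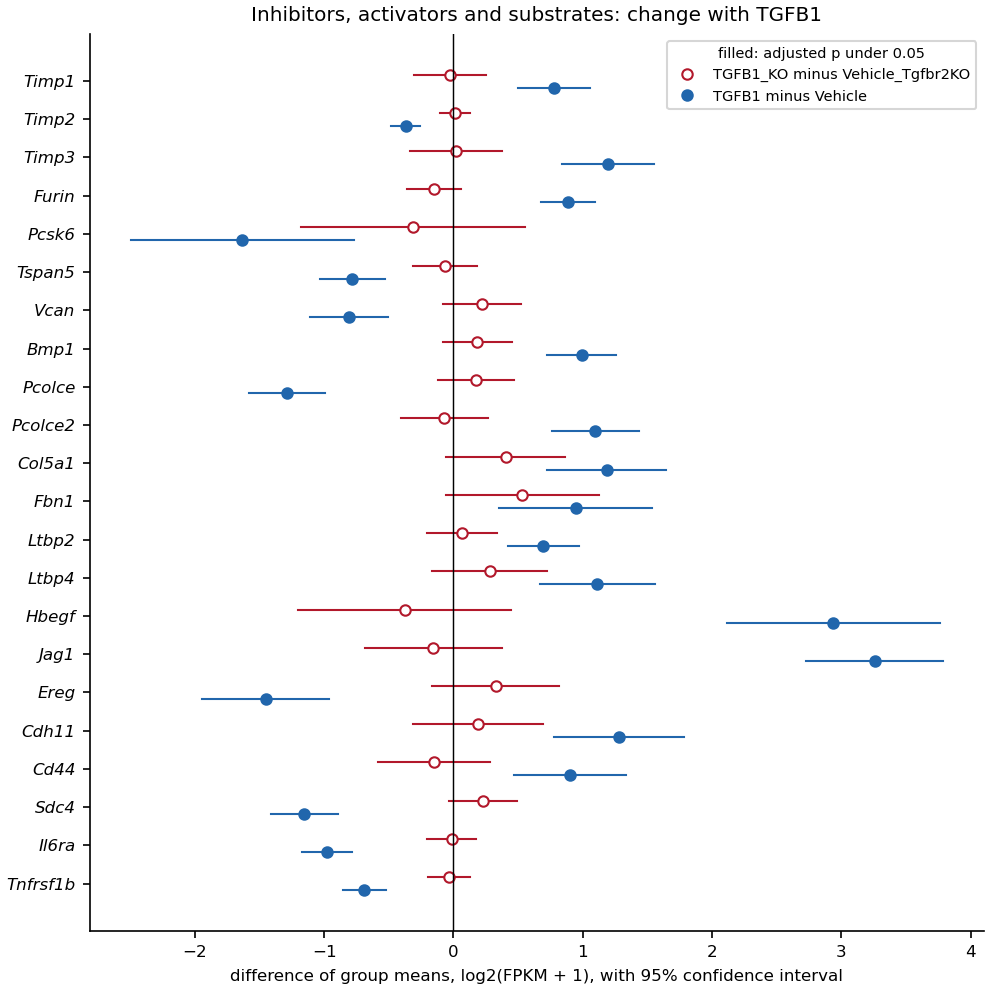
Difference of group means on the log2(FPKM + 1) scale with its 95% confidence interval for 22 inhibitors, activators, substrates and partners, all called with TGFB1 in intact cultures, for TGFB1_KO minus Vehicle_Tgfbr2KO (red, upper) and TGFB1 minus Vehicle (blue, lower). The blue points run from -1.63 for Pcsk6 to 3.26 for Jag1, and no red point is filled, a filled point being an adjusted p under 0.05.

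Some levels may hold reads of other genes. In RefSeq, 6 tested members (Adam8, Adam15, Adam17, Adam19, Adamts7 and Adamts9) share exon bases with a gene on the opposite strand, and the sources used here do not say whether the counting used strand, so reads of the member and its partner cannot be told apart there. The near-identical pairs Adam1a and Adam1b, Adam6a and Adam6b, and Adam26a and Adam26b were all among the untested members.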

How the data were processed

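RNA was measured in 12 libraries, 3 in each of 4 groups. Per the labels' protocols, a spin-column kit gave the RNA, poly-T beads selected the mRNA and random hexamers primed it. The deposited values are the authors' FPKM, 1 row for each gene symbol. The submitters' processing notes name kallisto 0.46.1, DESeq2 1.40.1 and the build mm9. How FPKM was computed and scaled, and whether strand was used, is not given in the sources used here.

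Fits used limma 3.58.1 under R 4.3.3 and tables Python 3.11.15, and the fit was tested on simulated data. Levels were taken as log2(FPKM + 1), which understates the change of low genes. Folds are ratios of mean FPKM. The 12641 genes at 1 FPKM or more in 3 or more libraries were fitted with 4 group means (8 residual degrees of freedom), a variance trend and empirical Bayes moderation, with Benjamini-Hochberg adjustment over all of them and a threshold of 0.05. Intervals are 95% intervals of this fit. Nothing in the labels says that libraries of a group came from separate animals or cultures. The p-values therefore cover only the spread between libraries, which may be technical. Part of this spread went with the replicate number, as given below, and the reported fit has no term for that number.

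The members, their classes and all other gene lists were chosen with earlier results of these data known. Values are given for each member called in any comparison or with a group mean of at least 5 FPKM, and companion genes were named from those called or at 5 FPKM or more, with all that were called with TGFB1 in intact cultures included. The labels give each group the same 3 replicate numbers. The column names carry 3 other numbers in the same order, again the same in each group, and their meaning is not given. Deviations from the group means of equally numbered libraries correlated at 0.391, 0.445 and 0.408 between TGFB1 and Vehicle and at 0.588, 0.227 and 0.529 between TGFB1_KO and Vehicle_Tgfbr2KO, so the numbers pair libraries within a genotype. Alternatives changed the pseudocount, filter, scaling, block, variance trend or the libraries included.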

Additional observations from a re-analysis of the deposited data

Results flagged for a closer look

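For 13 members the change with TGFB1 differed between genotypes by the test of that difference, the TGFB1 change in Tgfbr2 knockout cultures minus that in receptor-intact cultures (limma, log2 scale, Benjamini-Hochberg over all tested genes). The difference was positive for 6 members that fell with TGFB1 in intact cultures: 2.99 for Adamts9, 2.56 for Adamts5, 1.65 for Adamts1, 1.58 for Adam23, 1.45 for Adamts2 and 0.59 for Adam17. It was negative for 7 members that rose there: -1.58 for Adamts14, -0.79 for Adamts12, -0.69 for Adamts6, -0.68 for Adamts4, -0.53 for Adam19, -0.41 for Adam15 and -1.85 for Adamts16. The intact change enters each difference with a minus sign, so the opposite signs are no separate result. Adamts16 passed the filter only through its TGFB1 libraries, so its difference was built in, and 12 of 21 remain without it.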

How the results depend on the processing

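No called member changed sign under any alternative that gave a value. For TGFB1 minus Vehicle, 350 of 367 values of the 16 called members stayed past the threshold and 17 did not, in 4 members. The same was true of 365 of 373 for TGFB1_KO minus TGFB1 (2 members), 245 of 285 for the difference between genotypes (4 members) and 17 of 44 for Vehicle_Tgfbr2KO minus Vehicle (2 members). Except in Vehicle_Tgfbr2KO minus Vehicle, these values include those of Adamts16, whose calls were built in by the filter. Leaving out single libraries gave 14 to 16 members for TGFB1 minus Vehicle, 15 to 17 for TGFB1_KO minus TGFB1, 9 to 12 for the difference between genotypes and 0 for TGFB1_KO minus Vehicle_Tgfbr2KO. For Vehicle_Tgfbr2KO minus Vehicle, which called 2 members, it gave 0 to 4 members and 0 to 748 of all genes in place of 157. In that comparison the members called were 1 with no filter, 1 with upper-quartile scaling, 0 with only these groups fitted and 1 with no variance trend. All genes called there were 71 with no filter, 0 with only these groups fitted and 90 with no variance trend. The cause was not tested. All genes called for TGFB1_KO minus Vehicle_Tgfbr2KO were 0 in the reported fit, 1 with a pseudocount of 0.1 and 0 to 1 when single libraries were left out. For the difference between genotypes, leaving out single libraries gave 1486 to 2457 of all genes, and Tgfbr2 in Vehicle_Tgfbr2KO minus Vehicle stayed between -0.83 and -0.32. Levels near 1 FPKM limit Adamts9 in TGFB1 libraries, Adamts16 and Adamtsl1, since absolute read depth is unknown, and the -3.54 of Adamts9 came with a pseudocount of 0.1. No fit of only the groups compared was made for the difference between genotypes, which uses all 4 groups.

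Pairs of libraries were left out after seeing the data. Replicate 1 of both knockout groups was left out for its keratins, and its Msln was also the highest. Replicate 2 of both intact groups was left out for its low leukocyte markers, and its endothelial markers were the lowest as well. Without the keratin-bearing pair, 16 members were called for TGFB1 minus Vehicle, 12 for the difference between genotypes, 17 for TGFB1_KO minus TGFB1 and 0 for Vehicle_Tgfbr2KO minus Vehicle, where 1 of all genes was left. Without the pair low in leukocyte markers these counts were 12, 9, 15 and 1, and all genes called were 2553 for TGFB1 minus Vehicle, 2 for TGFB1_KO minus Vehicle_Tgfbr2KO, 1365 for the difference between genotypes and 10 for Vehicle_Tgfbr2KO minus Vehicle.

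With a replicate block over all libraries, 16 members were called for TGFB1 minus Vehicle and 3658 of all genes for the difference between genotypes, and with the block within each genotype 17 and 3558. The block changed no other call of TGFB1 within a genotype than those given with the results. Between genotypes, libraries of replicates 1 and 3 correlated (0.336 and 0.412 with vehicle, 0.337 and 0.276 with TGFB1). Those of replicate 2 did not (-0.0867 with vehicle, 0.00945 with TGFB1). Whether the numbers also pair libraries across genotypes is therefore not settled. With the block over all libraries, 6 members and 1897 genes were called for Vehicle_Tgfbr2KO minus Vehicle and 18 members for TGFB1_KO minus TGFB1. Tgfbr2 was called in the former at an unchanged -0.61 (adjusted p = 0.045). A block within each genotype gives no value for these comparisons.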
